A study of Drosophila melanogaster with 8 samples.

Results

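The genes described here encode nucleoporins, nuclear transport receptors and the Ran cycle, compared between asense mutant and control cells of the embryonic ventral nerve cord of Drosophila melanogaster. They were picked out by a pattern of gene names in the probe annotation, which uses no measured value, although the group was proposed with earlier results of these data known. The pattern matched 36 probes of 35 genes (22 nucleoporin genes and 13 carrier, Ran cycle and mRNA export genes) among 8295 genes and unnamed probes tested. Each of the 35 had a log ratio in all 5 pairs, so none was lost to the filter. Gp210, sbr and Lam, which the pattern also names, matched no probe symbol and were not analysed here.

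The mutant samples were ase1/ase1, homozygous for the ase1 allele of asense, and the controls were ase1/FM7-KrGFP. The controls therefore carried 1 copy of the same allele over FM7, a balancer X chromosome marked with KrGFP. Both were taken from stage 11 embryos raised at 25 °C, as populations of neuroblasts and ganglion mother cells, 50 to 100 cells per sample, whose cDNA was amplified by PCR. Each mutant sample was hybridised directly against a control on 8 2-colour arrays that form 5 numbered pairs (1, 3, 4, 5 and 6). In pairs 1, 4 and 5 the same 2 sources were hybridised on an array a and an array b, which were averaged to 1 replicate, and the mutant was in Cy5 in 2 pairs (1 and 3) and in Cy3 in 3 pairs (4, 5 and 6). Separate embryos for each pair are not stated in the labels, and the p-values therefore rest on a spread between pairs that may in part be technical.

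Nuclear pore complexes are built of nested rings of nucleoporins around a channel lined by phenylalanine-glycine repeats. Import receptors of the importin beta family, some through importin alpha adaptors, carry proteins inward, exportins carry cargo outward, and the small GTPase Ran gives the traffic its direction. In dividing embryonic cells such as neuroblasts, pores are at least partly taken apart at mitosis and rebuilt around the daughter nuclei.

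Values are log ratios of mutant over control, read as log2. This direction is likely rather than documented. It rests on the mutated gene itself, whose log ratio lay between -6.50 and -4.81 on all 8 arrays, in both dye orientations (ase, mean -6.06 ± 0.47, SD, n = 5, limma adjusted p = 4.23e-06). A log ratio gives no level of a transcript in either sample, so the abundance of one gene cannot be set against another here, nor can marker levels test the labelled cell type. In such bulk samples fewer cells of a type and less RNA per cell cannot be told apart.

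In mutant cells 6 of the 35 genes rose, 2 fell and 27 did not pass the test (limma, mean of the pairs against 0, Benjamini-Hochberg adjusted over all 8295 features, threshold 0.05). The genes that rose were the cytoplasmic-face nucleoporin Nup214, the inner-ring nucleoporins Nup93-1, Nup154 and Nup205, the import receptor msk and the importin alpha Pen. Those that fell were the inner-ring nucleoporin Nup35 and the channel nucleoporin Nup62. The share called was 22.9%, against 18.3% of all features. Higher calls made up 17.1% of the 35 genes and 6.97% of all features, and lower calls 5.71% of the 35 genes and 11.3% of all features. The median log ratio was 0.18 over the 35 genes and -0.07 over all features, and 71.4% of these genes had a mean above 0, against 42.6% of all features. These shares describe the list and are no test of it.

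The counts depend on the setting. With the median of the measured values of every array set to 0, 12 of the genes rose and 2 fell, while over all features the split was 805 higher and 707 lower, against 578 higher and 939 lower in the values as deposited. With array a of each pair only, 1 rose (Nup214) and 0 fell, with limma calling 474 of 7828 features. Leaving out pair 1 gave 3 higher and 2 lower, leaving out pair 3 gave 5 and 1, and leaving out pair 4 gave 6 and 0. Leaving out pair 5 gave 2 (Nup214 and Nup93-1) and 0, and leaving out pair 6 gave 5 and 3. The calls over all features also fell in these fits. They were 359 higher and 570 lower without pair 1, 381 and 682 without pair 3, and 304 and 481 without pair 4. Without pair 5 they were 268 and 389, and without pair 6 they were 474 and 829.

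**Figure D1:**
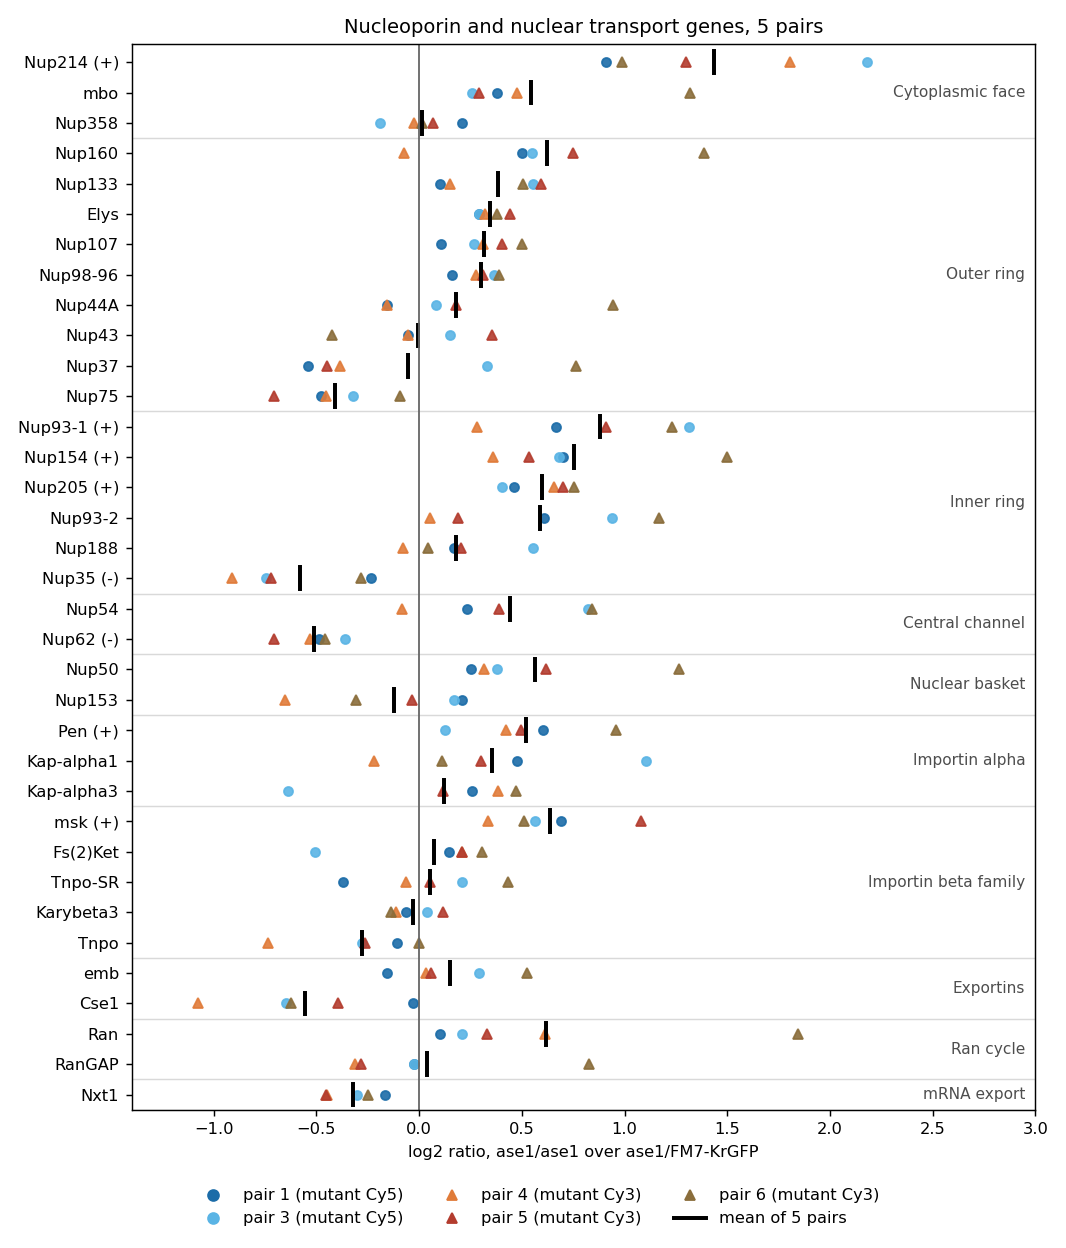
Log2 ratio (horizontal axis, ase1/ase1 over ase1/FM7-KrGFP) of each of the 35 genes in the 5 pairs, grouped by role. Circles are pairs with the mutant in Cy5, triangles pairs with the mutant in Cy3, black bars the mean, and (+) or (-) marks the 6 higher and 2 lower calls. Nup214 lies farthest to the right with all 5 pairs between 0.91 and 2.18, and Nup35 has the lowest mean, -0.58.

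The cytoplasmic face of the pore held the largest log ratio of the list. Nup214, a repeat nucleoporin that with mbo docks exportin complexes at the cytoplasmic face, had log ratios of 0.91, 2.18, 1.80, 1.30 and 0.99 in pairs 1, 3, 4, 5 and 6. All 5 pairs and all 8 arrays were above 0. The mean was 1.43 ± 0.54 (SD, n = 5, limma adjusted p = 4.97e-03), a 2.70-fold higher signal in mutant cells. Repeat arrays of one pair differed widely. Array 1a gave 1.67 and array 1b 0.14, and array 5a gave 2.14 and array 5b 0.46. Among the 35 genes, Nup214 was the 1 that kept its call in each of the 16 alternative settings that kept the mutant over control direction, with means from 1.25 to 1.72.

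The other 2 of the 35 genes at the same face, mbo and Nup358, did not pass. mbo, the fly Nup88, had log ratios of 0.38, 0.26, 0.48, 0.29 and 1.32 in pairs 1, 3, 4, 5 and 6, so that pair 6 stood apart from the other 4. Its mean was 0.54 ± 0.44 (SD, n = 5, limma adjusted p = 0.0689), and it passed with centred arrays and with the 8 arrays fitted under a random pair effect. Nup358, which forms the cytoplasmic filaments and binds RanGAP, was centred on 0 with a mean of 0.02 and pairs between -0.19 and 0.21. The 95% interval of Nup358 ran from -0.26 to 0.29. Of 3 genes of this face outside the 35, Aladin fell (-0.51, limma adjusted p = 0.0243), while Rae1 (0.37) and Gle1 (0.41) did not pass.

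The inner ring, the scaffold that lies against the pore membrane and anchors the channel, had 3 genes higher, 1 lower and 2 that did not pass. Nup93-1, 1 of 2 fly genes for the scaffold protein Nup93, had log ratios of 0.67, 1.31, 0.28, 0.91 and 1.23 in pairs 1, 3, 4, 5 and 6. Every pair was above 0, although array 1a was at -0.19 where array 1b was at 1.53. The mean was 0.88 ± 0.42 (SD, n = 5, limma adjusted p = 0.0147), and the call was lost with array a of each pair only (mean 0.71, limma adjusted p = 0.127). The sister gene Nup93-2 had 0.61, 0.94, 0.05, 0.19 and 1.17 in the same order, with a mean of 0.59 ± 0.48 that did not pass (limma adjusted p = 0.0633).

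Nup154, the fly Nup155 and a large scaffold protein needed in gametogenesis, had log ratios of 0.70, 0.68, 0.36, 0.53 and 1.50 in pairs 1, 3, 4, 5 and 6. The highest value came from pair 6, and within pair 1 the arrays stood at -0.23 (1a) and 1.63 (1b). The mean was 0.75 ± 0.44 (SD, n = 5, limma adjusted p = 0.0251). The adjusted p was 0.0588 without pair 1, 0.0531 without pair 3 and 0.0578 without pair 5 (limma). Nup205, a solenoid protein that binds Nup93, gave the tightest values of the higher genes, 0.46, 0.40, 0.66, 0.70 and 0.76. All 8 arrays of Nup205 were above 0, but they ran from 0.10 on array 4a to 1.21 on array 4b. The mean was 0.60 ± 0.15 (SD, n = 5, limma adjusted p = 0.0154), with an adjusted p of 0.0599 without pair 5. With array a of each pair only the mean of Nup205 was 0.50 (limma adjusted p = 0.0976). Its paralogue Nup188 had a mean of 0.18 ± 0.24 and did not pass, with a 95% interval from -0.13 to 0.48.

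Nup35, the small membrane-binding member of the inner ring known as Nup53 in vertebrates, went the other way. Its log ratios were -0.24, -0.74, -0.91, -0.72 and -0.28 in pairs 1, 3, 4, 5 and 6. All 5 pairs and all 8 arrays were below 0. The mean was -0.58 ± 0.30 (SD, n = 5, limma adjusted p = 0.0314), a 1.49-fold lower signal in mutant cells. The adjusted p was 0.0771 without pair 3, 0.0942 without pair 4 and 0.101 without pair 5 (limma).

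The channel nucleoporins also split. Nup62, the repeat protein at the core of the channel complex, had log ratios of -0.49, -0.36, -0.53, -0.71 and -0.46 in pairs 1, 3, 4, 5 and 6. All pair means lay below 0 within a narrow range, and 1 array of 8 (4a, at 0.06) was above 0. The arrays behind them were less even, with -1.13 on array 4b, -0.37 on array 5a and -1.05 on array 5b. With array a of each pair only the mean was -0.30 and the call was lost (limma adjusted p = 0.244). The mean over the 5 pairs was -0.51 ± 0.13 (SD, n = 5, limma adjusted p = 0.0229), with an adjusted p of 0.0602, 0.0672 and 0.0899 without pair 1, 4 or 5. Nup54, which forms the channel complex with Nup62 and Nup58, had 0.23, 0.82, -0.08, 0.39 and 0.84, with a mean of 0.44 ± 0.39 that did not pass (limma adjusted p = 0.0993).

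**Figure D2:**
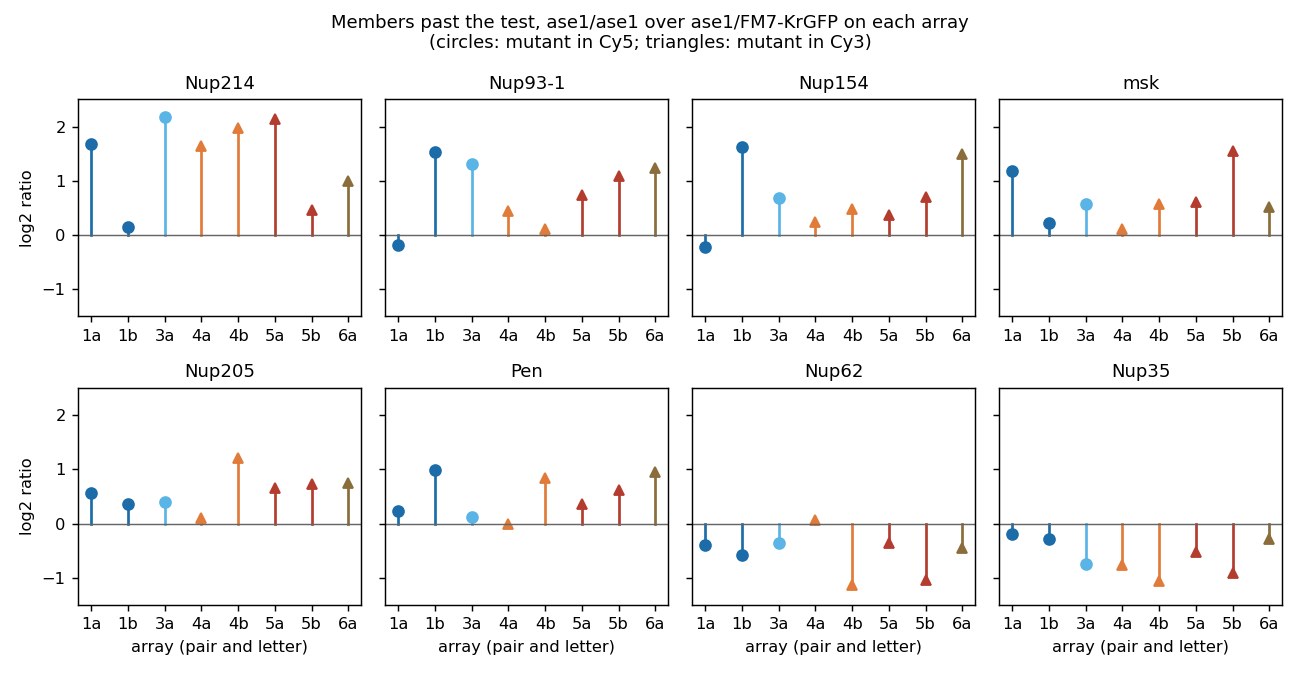
Log2 ratio (vertical axis, ase1/ase1 over ase1/FM7-KrGFP) on each of the 8 arrays (horizontal axis) for the 8 genes past the test, with circles for the mutant in Cy5 and triangles for the mutant in Cy3. Nup214, msk and Nup205 are above 0 on all 8 arrays and Nup35 below 0 on all 8, while arrays 1a and 1b of the same pair differ widely for Nup214, Nup93-1 and Nup154.

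Of the 35 genes 9 belong to the outer ring, and 0 of these passed the limma test at the adjusted threshold. Their median was 0.30, and 6 had a mean above 0. At an unadjusted p below 0.05 stood 6 of these 9 genes, and over the whole list 16 genes with a mean above 0 and 5 with a mean below 0. In this limma test an unadjusted p of 0.0505 went with an adjusted p of 0.140, so many of all features stood at that level. The exact share of all features below 0.05 was not counted here, so these counts are no test of the list. Sec13, an outer-ring gene outside the 35, fell (-1.09, limma adjusted p = 7.53e-03). Nup160 had the highest mean of the ring, 0.62 ± 0.53 (SD, n = 5, limma adjusted p = 0.0662), with 0.50, 0.55, -0.08, 0.75 and 1.39 in pairs 1, 3, 4, 5 and 6. Elys, which binds chromatin and starts pore assembly after mitosis, was the most even gene of the list at 0.29, 0.29, 0.32, 0.44 and 0.38. Its mean was 0.35 ± 0.07 (SD, n = 5) and the limma adjusted p 0.0663. The arrays behind these even pair means were less even, from -0.12 on array 1a to 0.94 on array 5b.

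Nup133, Nup107 and Nup98-96, whose transcript encodes both Nup98 and Nup96, had means of 0.38, 0.32 and 0.30, and each was above 0 in all 5 pairs. Their limma adjusted p-values lay between 0.0809 and 0.0984, and Nup133 passed with centred arrays. Nup75, the fly Nup85, ran the other way with -0.48, -0.32, -0.46, -0.71 and -0.10. It was below 0 in all 5 pairs and on all 8 arrays, with a mean of -0.41 ± 0.22 (SD, n = 5, limma adjusted p = 0.0633), and passed without pair 6 (mean -0.49, limma adjusted p = 0.0412). Without pair 1, 3, 4 or 5 the limma adjusted p of Nup75 was 0.144, 0.100, 0.142 or 0.192. Nup44A, the fly Seh1, averaged 0.18 over 2 probes, which stood at 1.37 and 0.52 in pair 6. Nup43 (-0.01) and Nup37 (-0.06) were near 0 in the mean, but Nup37 ranged from -0.54 in pair 1 to 0.76 in pair 6.

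At the nuclear basket, on the inner side of the pore, Nup50 had log ratios of 0.25, 0.38, 0.32, 0.62 and 1.26 in pairs 1, 3, 4, 5 and 6. All pairs were above 0, pair 6 being the highest, and the mean of 0.57 ± 0.41 (SD, n = 5) did not pass (limma adjusted p = 0.0553). Nup153, which anchors the basket, had a mean of -0.12 with pairs between -0.65 and 0.21.

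Among the importin alpha adaptors, Pen rose. Pen (pendulin, importin alpha 2) had log ratios of 0.60, 0.13, 0.42, 0.50 and 0.96 in pairs 1, 3, 4, 5 and 6. All pairs were above 0 and 1 of 8 arrays was below (4a, at -0.01). The mean was 0.52 ± 0.30 (SD, n = 5, limma adjusted p = 0.0441). This was the weakest of the 8 calls. With pair 1 left out the limma adjusted p was 0.106, with pair 4 left out 0.0921, with pair 5 left out 0.111 and with pair 6 left out 0.0766. The other importin alphas did not pass. Kap-alpha1 had a mean of 0.35 with pairs between -0.22 and 1.10, and Kap-alpha3 a mean of 0.12 with pairs between -0.64 and 0.47.

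Of 5 importin beta family genes, msk rose and 4 did not pass. msk (moleskin, the fly importin 7, known to carry activated MAP kinase into the nucleus) had log ratios of 0.69, 0.56, 0.34, 1.08 and 0.51 in pairs 1, 3, 4, 5 and 6. All 5 pairs and all 8 arrays were above 0. The mean was 0.64 ± 0.28 (SD, n = 5, limma adjusted p = 0.0208), with an adjusted p of 0.0580 without pair 1 and 0.0715 without pair 5. Fs(2)Ket, the fly importin beta itself, had a mean of 0.07, with -0.51 in pair 3 and values from 0.14 to 0.31 in the other 4 pairs. Tnpo-SR, a receptor for splicing factors of the SR family, was at 0.05. Karybeta3, the fly importin 5, was at -0.03, with pairs between -0.14 and 0.11 and a 95% interval from -0.30 to 0.23. Transportin (Tnpo), which imports RNA-binding proteins, had 5 of 5 pairs below 0 and a mean of -0.28 ± 0.28 that did not pass (limma adjusted p = 0.193).

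Neither exportin passed. Cse1, which returns importin alpha to the cytoplasm, had log ratios of -0.03, -0.65, -1.08, -0.39 and -0.62 in pairs 1, 3, 4, 5 and 6. All pairs were below 0, pair 1 only just. The mean was -0.55 ± 0.38 (SD, n = 5) and the limma adjusted p 0.0513, against 0.0408 without pair 1. Without pair 3, 4, 5 or 6 the limma adjusted p of Cse1 was 0.108, 0.135, 0.104 or 0.0899. The general export receptor emb (embargoed, exportin 1) had a mean of 0.15 and pairs between -0.16 and 0.52.

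In the Ran cycle, Ran had log ratios of 0.10, 0.21, 0.61, 0.33 and 1.84 in pairs 1, 3, 4, 5 and 6. The value in pair 6 was far above the others, and the mean of 0.62 ± 0.71 (SD, n = 5) did not pass (limma adjusted p = 0.119). RanGAP, the activator of GTP hydrolysis by Ran, had 1 of 5 pairs above 0, which was again pair 6 (0.83), and a mean of 0.04. Nxt1, the cofactor of the mRNA export receptor, was below 0 in all 5 pairs with a mean of -0.32 ± 0.13 (SD, n = 5, limma adjusted p = 0.0876), and it passed with array weights.

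Genes that work as partners had unequal log ratios on the same arrays. These 6 differences were chosen after the values were seen and carry no test. Because both genes are read on the same arrays, a shift of a whole array cancels in them. Nup54 minus Nup62 was 0.72, 1.18, 0.45, 1.09 and 1.30 in pairs 1, 3, 4, 5 and 6, a mean of 0.95 ± 0.35 (SD, n = 5). With array a of each pair only, that mean was 0.58, and 4 of 5 pairs were above 0. The mean of the other 5 inner-ring genes minus Nup35 was 1.18 ± 0.27 and between 0.76 and 1.52 in the 5 pairs. Pen minus its export receptor Cse1 was 1.07 ± 0.43 and above 0 in 5 of 5 pairs. Pen minus Kap-alpha3 was 0.40 ± 0.26 and msk minus Fs(2)Ket 0.56 ± 0.41, each also above 0 in 5 of 5 pairs. With array a of each pair only, Pen minus Kap-alpha3 came to 0.13, above 0 in 3 of 5 pairs. In that setting msk minus Fs(2)Ket came to 0.44, above 0 in 4 of 5 pairs. The inner-ring difference and Pen minus Cse1 stayed above 0 in 5 of 5 pairs there. Nup214 minus mbo was 0.89 ± 0.85, above 0 in 4 of 5 pairs and -0.33 in pair 6. With array a of each pair only, the mean of Nup214 minus mbo was 1.35.

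**Figure D3:**
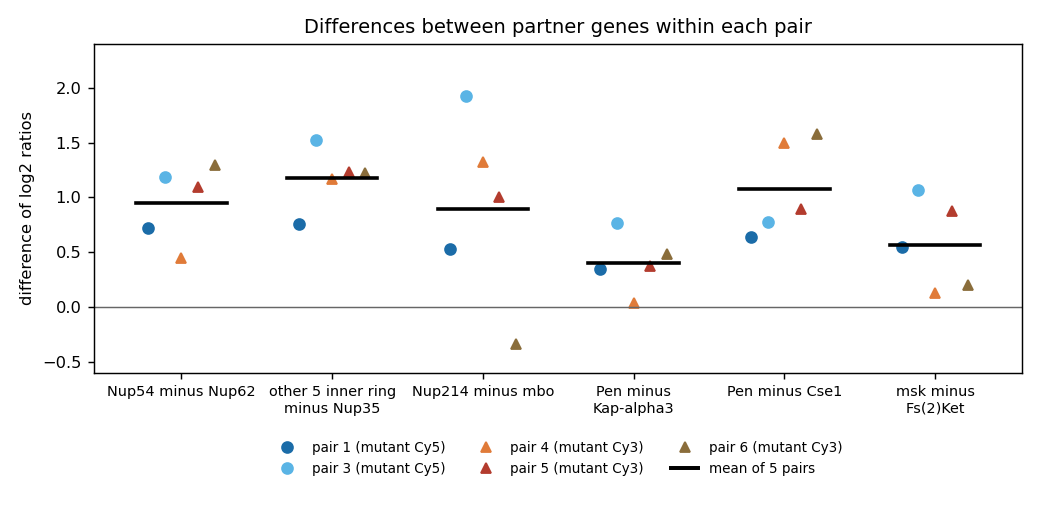
Difference of log2 ratios (vertical axis) between partner genes in each of the 5 pairs, with circles for the mutant in Cy5, triangles for the mutant in Cy3 and black bars for the mean. With repeat arrays averaged, all pairs lie above 0 in 5 of the 6 comparisons, and Nup214 minus mbo is below 0 in pair 6.

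Of the 35 genes, 14 were above 0 in all 5 pairs (40.0%, against 13.1% of all features) and 6 were below 0 in all 5 (17.1%, against 21.3% of all features). The other 15 had pairs on both sides. The shares of all features count the measured pairs only, which were all 5 pairs for 7614 of the 8295 features. The 6 that stayed below 0 were Nup35, Cse1, Nup62, Nup75, Nxt1 and Tnpo. The spread of these genes was close to that of the array as a whole, with a median SD over pairs of 0.30 for the 35 genes and 0.35 for all features. Their median size was 0.35, against 0.28 for all features. The pairs themselves differed. The median over the 35 genes was 0.16, 0.26, -0.02, 0.21 and 0.50 in pairs 1, 3, 4, 5 and 6, against -0.07, -0.04, -0.08, -0.13 and -0.05 over all features. Pair 6, which rests on 1 array, was the highest and pair 4 the lowest, and in pair 4 the arrays stood at -0.05 (4a) and 0.17 (4b). Of the 35 genes, 17 changed sign between arrays 4a and 4b, and 12 between arrays 5a and 5b. Of the 33 measured on both arrays of pair 1, 14 changed sign. The median size of the difference between arrays a and b was 0.42, 0.60 and 0.39 for the listed genes in pairs 1, 4 and 5. Over all features it was similar, at 0.45, 0.57 and 0.44.

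**Figure D4:**
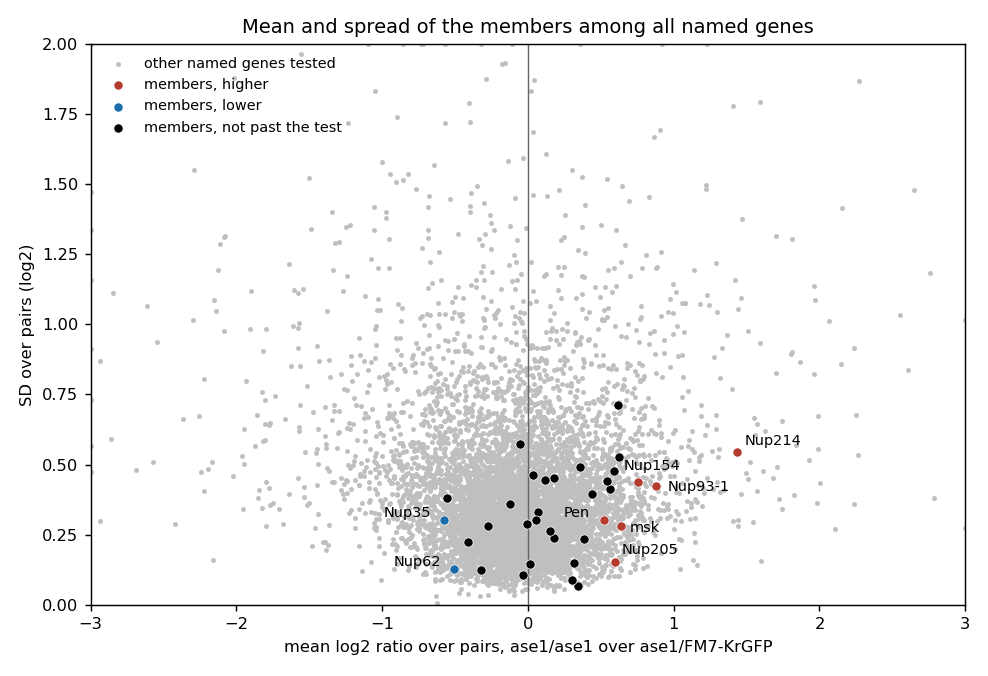
Mean log2 ratio over pairs (horizontal axis) and SD over pairs (vertical axis) of the 35 genes (coloured points by call) among 7171 named genes tested (all points together), of which 20 outside the axes are drawn at the edge. Most of the 35 lie in the dense middle of the cloud. Nup214 lies farthest to the right of the 35, at percentile 97.8 of all features tested by size of the mean.

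Dye orientation was tested as a term of the fit. No dye term passed the limma test for the 35 genes (0 calls, 0 at an unadjusted p below 0.05, adjusted p from 0.948 to 0.997) or for all features (0 calls, 334 at an unadjusted p below 0.05). Nup214 averaged 1.54 over the 2 pairs with the mutant in Cy5 and 1.36 over the 3 pairs with the mutant in Cy3, and Nup35 averaged -0.49 and -0.64 in the same order. With a dye term in the fit 4 of the 35 genes rose and 1 fell, against 426 higher and 682 lower over all features. Nup154, Pen and Nup35 lost the call (limma adjusted p of 0.0511, 0.0724 and 0.0586).

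By chromosome arm, 6 of the 35 genes lie on the X, where the control carries FM7 in place of 1 of the ase1 chromosomes. Of these Nup93-1 and Nup205 rose and Nup35 fell, and their median was 0.47, against -0.08 for all 1113 X-linked genes tested. Of those 1113 genes 16.4% passed. On the other arms too the median of the listed genes lay above that of all genes tested. It was 0.15 against -0.05 on 2L, 0.18 against -0.06 on 2R, 0.35 against -0.09 on 3L and 0.12 against -0.04 on 3R. The 9 genes of arm 3R held 0 calls in limma, while 17.5% of the 1756 genes tested there passed.

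Of 40 other genes of the same machinery and the nuclear envelope on the array, 35 were tested, of which 1 rose and 5 fell, with a median of 0.00. Sec13, shared between the outer ring and the coat of secretory vesicles, fell (-1.09 ± 0.42, SD, n = 5 pairs). Aladin of the cytoplasmic face fell too (-0.51 ± 0.15), as did the mRNA export genes Hpr1 (-0.57 ± 0.22) and e(y)2 (-0.77 ± 0.36). The lamin B receptor gene LBR, of the inner nuclear membrane, fell as well, with a mean of -0.64 ± 0.09 (SD, n = 5 pairs, limma adjusted p = 0.0104). The 1 that rose was klar (0.69 ± 0.23), which links nuclei to microtubules. Among those that did not pass were the transmembrane nucleoporin Ndc1 (0.11), the basket protein Mgtor (0.06), the Ran exchange factor Rcc1 (0.10) and the Ran importer Ntf-2 (-0.17).

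Markers of cell types also differed between the genotypes. Of 5 neuroblast markers besides asense, mira (-0.69) and klu (-1.21) fell while dpn (-0.44), wor (-0.11) and insc (-0.03) did not pass. All 4 listed markers of ganglion mother cells and neurons fell (pros -1.27, nerfin-1 -1.31, elav -0.67 and Appl -0.43). The neuronal gene acj6, which was not on that list, rose (0.63, limma adjusted p = 0.0330). Of 4 glial markers gcm (-3.77), repo (-1.20) and Gs2 (-1.61) fell, while loco (-0.23) did not pass. Of 2 mesoderm markers lmd (-2.08) fell and twi (-0.11) did not pass. Of 4 hemocyte markers crq (-1.05) and Hml (-0.39) fell, Tig (0.90) rose and srp (-0.45) did not pass, and both measured ectoderm markers, crb (0.52) and pyd (0.72), rose. The values of repo and Tig rest on 4 pairs. The part of these differences in the log ratios of the nuclear pore and transport genes was not tested.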

How the data were processed

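The deposited table holds 1 ratio of the 2 dye channels, made by the authors and read here as log2, for each of 14569 probes on 8 arrays. The largest size, 7.43, exceeds the 4.82 that base 10 allows for a 16-bit scan, and with a natural log all folds would be larger. How the authors corrected background, normalized and centred the log2 values is not given in the sources used here. Spot intensities were not used here. Exact zeros (36.3% to 43.7% of an array) were taken as not measured, which left 8200 to 9276 probes per array, with medians from -0.18 to -0.02. The number of arrays limits the precision.

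Probes were named by the platform annotation (12657 with 1 symbol, 96 with several, 1816 with none), and symbols updated through Release 6 plus ISO1 MT gene names (12011 matched by gene ID and 107 by accession). The design text speaks of 8 samples of each genotype and the source names give 5, so pairs served as replicates. Probes of a gene and then arrays of a pair were averaged. Features with at least 4 of 5 pairs were tested against 0 with lmFit and eBayes of limma 3.58.1 (R 4.3.3), two-sided, with Benjamini-Hochberg adjustment. The procedure was tested on simulated data. All 35 genes are named. Values per pair are given for calls and for the 6 smallest p-values without a call, and for some others chosen after their values were seen. The genes and lists were chosen with earlier results of these data known. The alternatives concerned centring, scaling, direction, dye, repeat arrays, zeros, missing values, probes, weights, moderation and left-out pairs.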

Additional observations from a re-analysis of the deposited data

Results flagged for a closer look

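In 3 genes 1 pair stood well away from the remaining 4, by the gap to its nearest neighbour as a share of the whole range. Fs(2)Ket was at -0.51 in pair 3, where the nearest other pair was at 0.14. In pair 6 mbo was at 1.32, next to 0.48, and RanGAP was at 0.83, next to -0.02. Chance marks about 1 in 20 such groups of values of equal spread, which is 1.75 of the 35 examined. Pairs 3 and 6, where the 3 values lie, rest on 1 array each, while the other pairs average 2 arrays. That rate may therefore not hold here.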

How the results depend on the processing

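Of the 8 calls, Nup214 kept its call and its direction in all 16 alternatives that read the ratios as mutant over control, Nup93-1 in 15, Nup205 in 14, msk in 13, Nup62 in 12, Nup154 and Nup35 in 11 each and Pen in 10. None of them changed direction there. The means of these 8 genes did not change at all with zeros kept, each probe on its own or robust moderation. Nor did they change when only features measured in all pairs or on all arrays were used. A kept call in those settings says little. Over all features limma called 1517, against 474 with array a of each pair only, 1108 with a dye term and 657 to 1303 when 1 pair was left out. It called 2126 with array weights and 2243 with all 8 arrays fitted and pair taken as a random effect. That last fit estimated a correlation of -0.202 between arrays of a pair (repeat arrays no more alike than arrays of different pairs). The higher calls among the 35 genes numbered 12 with centred arrays, 1 with array a only, 8 with the random pair effect, 9 with array weights and 2 to 6 with 1 pair left out. The lower calls numbered 1 with a dye term, 0 with array a only, 4 with the random pair effect, 5 with array weights and 0 to 3 with 1 pair left out. Fits with a pair left out or with array a only use fewer arrays. Read as Cy5 over Cy3, limma called 0 features, with 0 higher and 0 lower among the 35 genes, a median of -0.090 and adjusted p-values of 0.999. The means in that reading changed sign for 13 of the 14 genes followed: -0.20 for Nup214, -0.087 for Nup93-1, -0.20 for Nup154, -0.14 for msk, -0.25 for Nup205, -0.23 for Pen, 0.17 for Nup62, 0.19 for Nup35, 0.28 for Cse1, -0.31 for Nup50, 0.091 for Nup75, -0.20 for Nup160 and -0.11 for Elys. Nup93-2 stayed above 0, at 0.028. Without a call in the main setting, Cse1 passed in 6 alternatives, Nup50, Nup75 and Nup160 in 3 each, Elys and mbo in 2 each, and Nup93-2, Nup133 and Nxt1 in 1 each. The main test is itself paired, since mutant and control share each array and enter as 1 ratio. No paired analysis was possible beyond it, because a pair number used as a block would leave no contrast to test.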
